A study of Mus musculus with 7 samples.

Results

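The Nlrp and Obox genes of the mouse were placed against lamin-associated domains (LADs), the stretches of chromatin found at the nuclear lamina, in embryonic fibroblasts. The members are the protein-coding genes whose symbol is Nlrp or Obox followed by a digit according to RefSeq on GRCm38.p6, the build also called mm10. There were 24 of them among 21887 protein-coding genes on the placed chromosomes: 6 Obox genes, 12 Nlrp genes known from oocytes and 6 Nlrp genes known from inflammasomes and other immune functions. The domains came from CUT&RUN for Lamin B1, a protein of the lamina. In this assay a nuclease tethered to an antibody cuts out the DNA near the antibody's target. The cells are named iMEF, mouse embryonic fibroblasts of lines derived independently within a single colony, and the list of domains is called wild type and merged in its name. No treatment or allele is given for them. The group used here is Lamin B1, with 2 libraries of 500000 cells per reaction, read here as pooled in 1 list of 1437 domains; that the merging joined these libraries is not stated. Which line gave which library is not stated, no value per library was used, and a placement therefore has no replicate error and no test. Read depth is unknown. Expression was not measured. Of 8 fibroblast marker genes, including Col1a1, Col3a1, Thy1 and Pdgfra, 0 had their midpoint in a LAD, against 23.8% of all protein-coding genes.

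Nlrp proteins carry a NACHT domain and, in most, a pyrin domain and leucine-rich repeats. Some are sensors of infection or damage that nucleate inflammasomes, which activate caspase-1. Others are made in growing oocytes, where Nlrp5, also called Mater, belongs to the subcortical maternal complex that the embryo needs for its early cleavages. Obox genes encode homeodomain proteins of the oocyte and early embryo, and members of the family take part in the activation of the zygotic genome. LADs are generally poor in genes and rich in genes that are silent in the cell studied.

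Several members are tandem copies, while 9 of the 14 clusters formed by neighbours up to 1 Mb apart held a single member. The sequences before the start sites show how alike the copies are, within a domain and between domains. Promoter windows from RefSeq (GRCm38.p6) matched 20 of the 24 members by gene ID. No window was matched for Obox6, Nlrp14, Nlrp10 and Nlrp4g. The 250 bases before the annotated start site are given 5′ to 3′ for the 5 matched Obox genes, which lie in 1 domain. Capitals mark exact runs shared by several of them: a run of 37 bases in Obox1, Obox2, Obox5 and Obox7, and a run of 25 bases in Obox1, Obox3, Obox5 and Obox7.
Obox7 (chr7:14659458-14659707, plus strand): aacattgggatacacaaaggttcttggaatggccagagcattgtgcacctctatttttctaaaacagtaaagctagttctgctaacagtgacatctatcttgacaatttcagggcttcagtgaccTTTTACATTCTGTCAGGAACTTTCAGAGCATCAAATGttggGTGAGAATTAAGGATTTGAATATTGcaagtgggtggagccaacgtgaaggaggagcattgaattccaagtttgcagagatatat
Obox2 (chr7:15388601-15388850, plus strand): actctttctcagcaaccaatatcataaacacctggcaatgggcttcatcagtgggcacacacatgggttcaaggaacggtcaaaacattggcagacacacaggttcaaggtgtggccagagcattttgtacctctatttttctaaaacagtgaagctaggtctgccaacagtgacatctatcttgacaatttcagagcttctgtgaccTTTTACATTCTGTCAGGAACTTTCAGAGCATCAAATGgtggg
Obox1 (chr7:15547007-15547256, plus strand): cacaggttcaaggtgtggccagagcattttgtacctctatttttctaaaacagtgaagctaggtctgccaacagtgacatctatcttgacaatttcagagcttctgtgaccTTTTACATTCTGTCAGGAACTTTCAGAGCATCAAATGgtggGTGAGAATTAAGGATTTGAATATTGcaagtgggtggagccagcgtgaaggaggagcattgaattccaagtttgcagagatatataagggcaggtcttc
Obox3 (chr7:15639778-15640027, minus strand): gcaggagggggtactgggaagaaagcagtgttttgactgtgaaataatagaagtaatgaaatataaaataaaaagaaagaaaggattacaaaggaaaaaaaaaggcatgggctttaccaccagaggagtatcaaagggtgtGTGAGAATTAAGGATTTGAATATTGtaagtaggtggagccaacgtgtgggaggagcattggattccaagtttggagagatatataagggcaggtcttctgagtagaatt
Obox5 (chr7:15750120-15750369, plus strand): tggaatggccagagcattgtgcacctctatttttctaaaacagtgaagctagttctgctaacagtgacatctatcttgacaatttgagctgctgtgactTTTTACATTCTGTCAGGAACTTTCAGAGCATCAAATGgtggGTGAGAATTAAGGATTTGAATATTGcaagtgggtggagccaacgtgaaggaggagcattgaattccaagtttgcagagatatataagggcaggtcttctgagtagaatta
The run of 25 bases starts 84 to 110 bases before the start site in Obox7, Obox1, Obox3 and Obox5. In Obox2 it starts 1 base before the annotated start site and continues past it, so it is not capitalised above. Among the first promoter windows of 17492 protein-coding genes, read on both strands, this run occurred in 5, all of them Obox genes, and the run of 37 bases occurred in 4, also all Obox genes. Over the 250 bases, Obox1 and Obox5 were 87.8% identical in a global alignment with gaps counted, Obox1 and Obox7 84.5%, and Obox3 and Obox5 63.2%. The 10 Obox pairs ranged from 37.6% to 87.8%, with a median of 59.3%. The pairs with Obox2 were at the low end, although Obox2 and Obox1 had 153 bases in common without a break and a global identity of 44.1%. The shared runs lie closer to the annotated start site in Obox2 than in the others, so its window is offset against theirs. Taking first windows, pairs of members from different subfamilies had a median identity of 50.0% (166 pairs, at most 54.2%).

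Taking the first RefSeq window of each gene, the 10 Nlrp4 pairs had a median identity of 49.5% before their start sites, with a highest value of 59.2% for Nlrp4b and Nlrp4c. Nlrp9c and Nlrp9a, which share a domain, were 66.7% identical over these bases and had 106 bases in common without a break, in capitals here.
Nlrp9c (chr7:26403701-26403950, minus strand): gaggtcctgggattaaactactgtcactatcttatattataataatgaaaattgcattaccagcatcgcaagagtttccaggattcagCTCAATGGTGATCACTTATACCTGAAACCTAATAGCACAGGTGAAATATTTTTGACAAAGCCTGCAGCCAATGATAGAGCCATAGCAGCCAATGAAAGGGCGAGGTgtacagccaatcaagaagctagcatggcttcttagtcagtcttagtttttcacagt
Nlrp9a (chr7:26534773-26535022, plus strand): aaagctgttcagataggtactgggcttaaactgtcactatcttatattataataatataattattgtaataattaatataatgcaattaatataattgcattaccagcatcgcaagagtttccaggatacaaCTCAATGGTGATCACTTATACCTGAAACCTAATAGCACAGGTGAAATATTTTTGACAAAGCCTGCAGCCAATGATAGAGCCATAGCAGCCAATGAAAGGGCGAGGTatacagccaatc
Nlrp9b, in another domain, was 49.8% identical to Nlrp9a and 50.5% to Nlrp9c. Nlrp4c, Nlrp4b and Nlrp4a each lie in a different domain. Their shared run of 12 bases, in capitals, contains a CCAAT box, and for Nlrp4a the window shown is the second of its 2 RefSeq windows, chosen as the more similar to Nlrp4b. It was 69.9% identical to the window of Nlrp4b and 57.2% to that of Nlrp4c, where its first window was 50.8% and 47.8% identical to them.
Nlrp4c (chr7:6044911-6045160, plus strand): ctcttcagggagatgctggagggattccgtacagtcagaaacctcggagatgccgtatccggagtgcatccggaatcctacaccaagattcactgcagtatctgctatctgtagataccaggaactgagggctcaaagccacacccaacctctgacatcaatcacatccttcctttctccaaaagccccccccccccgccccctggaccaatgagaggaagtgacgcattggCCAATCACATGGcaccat
Nlrp4b (chr7:10687543-10687792, plus strand): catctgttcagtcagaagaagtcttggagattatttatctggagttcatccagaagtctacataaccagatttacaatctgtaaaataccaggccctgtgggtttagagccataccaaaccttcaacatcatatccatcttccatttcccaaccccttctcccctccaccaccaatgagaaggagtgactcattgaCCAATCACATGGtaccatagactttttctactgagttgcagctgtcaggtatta
Nlrp4a (chr7:26435364-26435613, plus strand): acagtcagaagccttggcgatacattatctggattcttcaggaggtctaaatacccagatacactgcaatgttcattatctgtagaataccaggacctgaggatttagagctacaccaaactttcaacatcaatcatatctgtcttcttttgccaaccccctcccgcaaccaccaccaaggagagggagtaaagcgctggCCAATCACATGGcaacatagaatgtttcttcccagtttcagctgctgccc
This run is not limited to the family: among the first windows of all genes it also occurred in Dcxr, Oscp1 and Tmem52b. The inflammasome pair Nlrp1a and Nlrp1b was 83.3% identical over the same stretch with the first window of Nlrp1b, and 50.3% with its second. Sequence this similar bears on the mapping of short reads, since a read from a shared stretch can come from several copies. How such reads were assigned is not stated in the sources used here, and its part in the placements was not tested.

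Most members lay inside LADs. By the gene midpoint, 20 of the 24 members (83.3%) were in a LAD, against 23.8% of all protein-coding genes (5207 of 21887). The oocyte Nlrp genes were all inside (12 of 12), as were 5 of the 6 Obox genes, and the inflammasome Nlrp genes were divided, with 3 of 6 inside. This last count rests on genes near borders: by the lowest coordinate of each gene, whatever its strand, it was 33.3%. The gene lost by that rule, Nlrp1a, is on the minus strand, and its start site lay in the LAD. With LADs shortened by 50 kb at each end the share of inflammasome Nlrp genes was 16.7%, where all protein-coding genes were at 20.6%. On chromosome 7, where 16 of the 18 oocyte genes are, 15 of these 16 lay in a LAD. The share for all protein-coding genes of that chromosome was 37.4% (760 of 2030). Chromosome 7 also carries many olfactory and vomeronasal receptor genes, 408 of 417 of which were in LADs, and without these receptors the share was 21.8% (352 of 1613). Neighbouring members often share a domain, so the 24 genes are not 24 independent placements. They formed 14 groups when neighbouring midpoints up to 1 Mb apart were joined, and the 20 members inside LADs occupied 9 domains.

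**Figure D1:**
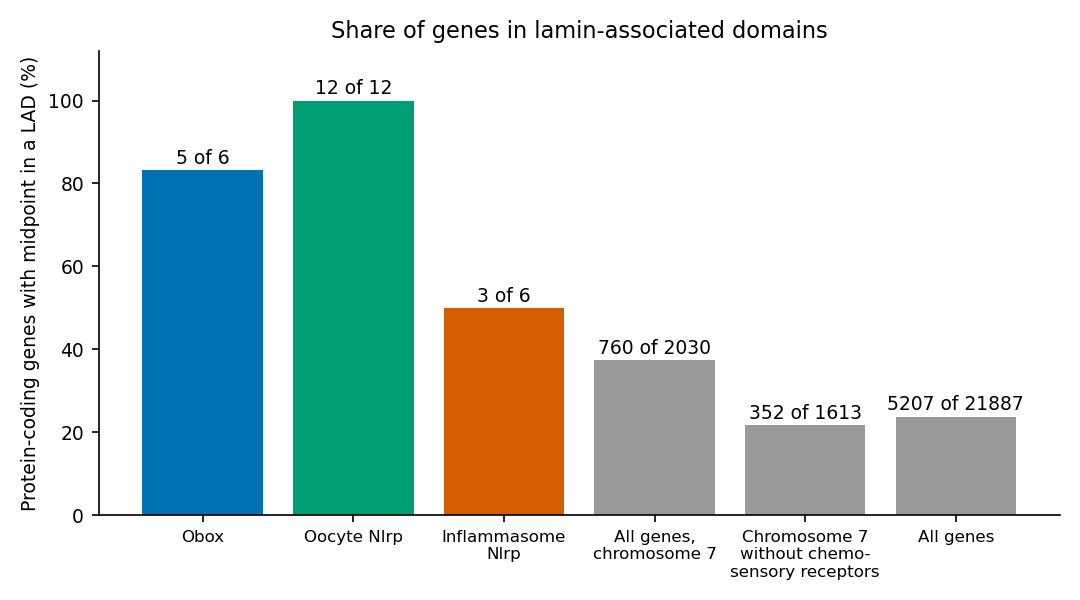
Bars give the percentage of protein-coding genes whose midpoint lies in a LAD, with the counts above them, for the 3 groups of members and for all genes, the latter on chromosome 7, on chromosome 7 without olfactory and vomeronasal receptors, and genome-wide. All 12 oocyte Nlrp genes are inside, against 3 of 6 inflammasome Nlrp genes and 23.8% of all genes.

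The Obox genes lay in a row that ran from near the middle of a single domain past its distal border. This LAD (chr7:13307586-15830077) measured 2.52 Mb, rank 125 of 1437 by length. From the inside outwards, Obox7 (chr7:14659708-14665996) had its midpoint 1167 kb from the nearest border. Obox2 (chr7:15388851-15398545) was 436.4 kb from it, Obox1 (chr7:15547257-15556846) 278.0 kb and Obox3 (chr7:15625306-15639777) 197.5 kb. Obox5 (chr7:15750370-15759274) was the last gene inside, 75.3 kb from the border. Obox6 (chr7:15833250-15839679) was the exception: it began 3.17 kb beyond the end of the domain, with its midpoint at 6.39 kb. Domain lengths in this list are multiples of 2.5 kb within 36 bp, so this distance is little more than a step of that grid. Moving every border outwards by 2.5 kb left Obox6 outside, and moving it by 50 kb took it in.

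The stretch from Obox7 to Obox6 held no other protein-coding gene. Obox pseudogenes lay between its genes and before Obox7. Of 47 Obox pseudogenes in the table, 45 lay in the domain as a whole, comprising all 38 Obox4 and 7 of 8 Obox3 pseudogenes, together with the pseudogene Nlrp5-ps. The remaining copies, Obox3-ps8 and Obox6-ps1, are on chromosome 17 and lay outside LADs, at 16.7 and 199.7 kb from a border. In all, 48 of the 50 Nlrp and Obox pseudogenes were in LADs (96%), against 50.4% of the 10429 pseudogenes in the table. The protein-coding gene before the Obox row, the vomeronasal receptor Vmn1r90, was in the domain. The first after it, Crx, a homeobox gene of photoreceptors, lay 42.9 kb outside, followed by Crxos at 63.2 kb. The gap that starts with Obox6 measured 1.26 Mb and held 40 protein-coding genes, or 31.8 per Mb, against 7.14 per Mb in the Obox domain. At its other end the domain was separated from the next by 52.5 kb, among the 10 shortest of the 1416 gaps between domains.

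**Figure D2:**
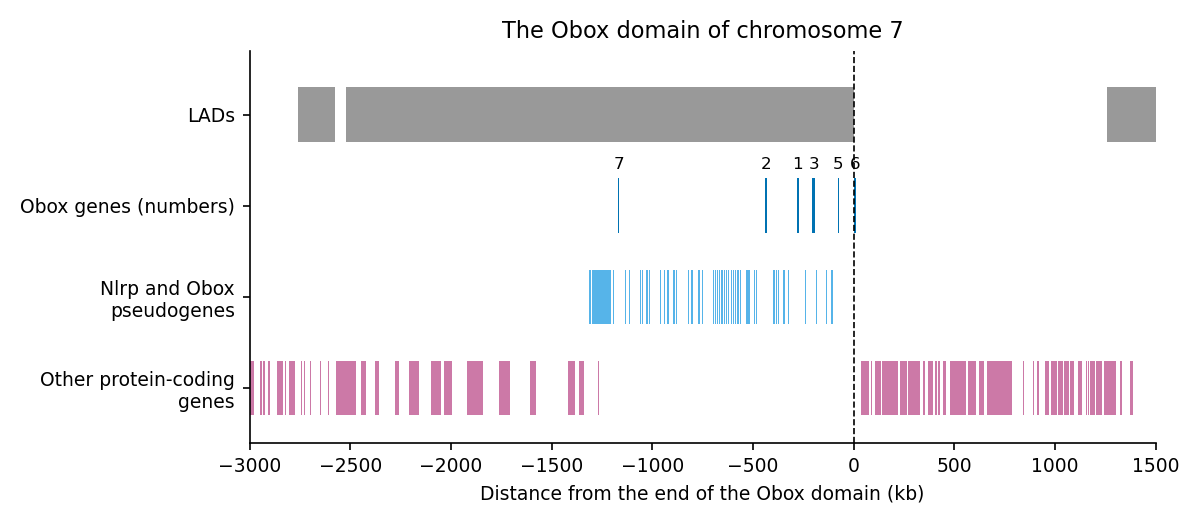
Map of the Obox domain, with the distance from its end in kb on the horizontal axis, LADs in grey, Obox genes labelled by their number, Nlrp and Obox pseudogenes, and other protein-coding genes; features under 6 kb are drawn 6 kb wide. Obox7, 2, 1, 3 and 5 lie before the end of the domain, Obox6 lies just past it, and no other protein-coding gene lies between Obox7 and Obox6.

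The oocyte Nlrp genes of chromosome 7 were spread over 5 domains. Nlrp2 (chr7:5298547-5351035), a maternal-effect gene of the subcortical complex, and Nlrp4c (chr7:6045161-6105149) shared a LAD of 992.5 kb (chr7:5120112-6112607), with midpoints 204.7 and 37.5 kb from a border. Nlrp4b (chr7:10687793-10730168) lay deepest of all members, 2091 kb from the nearest border in a LAD of 5.48 Mb (chr7:7317605-12800086), rank 18 by length. Nlrp14 (chr7:107113455-107198103), a gene of germ cells, followed at 1326 kb, in a LAD of 3.11 Mb (chr7:105829793-108937282).

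The remaining genes of this group lay in the domains flanking a gene-dense stretch. A LAD of 4.05 Mb (chr7:20000064-24055051) held Nlrp9b, Nlrp4e and Nlrp5. Nlrp5 (chr7:23385889-23441923) was 641.1 kb inside and its neighbour Nlrp4e (chr7:23301192-23362277) 723.3 kb. Nlrp9b (chr7:19991393-20062942), which is also known as an inflammasome gene of the intestine, was crossed by the border: 87.9% of its length was in the LAD. Its gene start, on the plus strand, lay 8.67 kb outside, and the start site of its first promoter window lay 7.96 kb inside. The next LAD, of 1.15 Mb (chr7:25927546-27082541), had the trio Nlrp9c (chr7:26364691-26403700), Nlrp4a (chr7:26435113-26476142) and Nlrp9a (chr7:26535023-26574148) near its middle, at 456.6, 528.1 and 528.0 kb from a border. Between these domains was a gap of 1.87 Mb with 70 protein-coding genes.

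Oocyte Nlrp genes also lay in LADs on other chromosomes. Nlrp4f (chr13:65177111-65205716), another gene of the subcortical maternal complex, was 728.3 kb inside a LAD of 2.99 Mb that also held 14 Zfp genes (chr13:64463138-67450628). Nlrp4g (chr9:124348831-124356974) was 170.8 kb inside a LAD of 600.0 kb (chr9:123923693-124523690), the last on its chromosome, beside 5 Ccr chemokine receptor genes. The share for all protein-coding genes was 23.9% on chromosome 13 and 28.4% on chromosome 9.

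The inflammasome Nlrp genes were found far outside LADs, near them or less than 100 kb inside them. Nlrp3 (chr11:59541569-59566955), the sensor that responds to potassium efflux, was 2131 kb from the nearest LAD, in a gap of 6.01 Mb. Nlrp12 (chr7:3218643-3249771), a gene of myeloid cells, was 508.4 kb before the first LAD of its chromosome. Nlrp6 (chr7:140920902-140929192), expressed in the intestinal epithelium, was 120.4 kb outside. These were the members most remote from LADs, and Obox6 was the only other member outside.

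The other inflammasome genes were inside LADs, Nlrp10 and Nlrp1a within 50 kb of a border and Nlrp1b farther in. Nlrp10 (chr7:108921853-108930158), which has no leucine-rich repeats, was 11.3 kb inside the LAD that holds Nlrp14, and its nearer edge was 7.12 kb from the border. The next gene, Eif3f, had its midpoint 0.896 kb outside. Nlrp1a (chr11:71091197-71144969) and Nlrp1b (chr11:71152574-71242514), the latter known as the sensor of anthrax lethal toxin, shared a LAD of 832.5 kb (chr11:71100449-71932945) with Wscd1 as the only other protein-coding gene. The border crossed Nlrp1a, with 82.8% of its length inside, and Nlrp1b was 97.1 kb inside. This domain is on a chromosome where 6.77% of protein-coding genes were in LADs (109 of 1609). The median depth of the 3 inflammasome genes inside LADs was 17.6 kb, that of the 12 oocyte Nlrp genes 528.0 kb, and that of all 5207 protein-coding genes inside LADs 307.7 kb. On chromosome 7, with 10 of the 12 oocyte Nlrp genes, the median depth of all protein-coding genes in LADs was 543.8 kb, slightly more than that of the oocyte Nlrp genes.

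Borders ran close to several members. The midpoints of 5 of 24 members (Obox6, Nlrp10, Nlrp1a, Nlrp9b and Nlrp4c) were within 50 kb of a border, against 7.86% of all protein-coding genes. A border crossed 2 of 24, Nlrp9b and Nlrp1a, and 3.36% of all protein-coding genes.

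**Figure D3:**
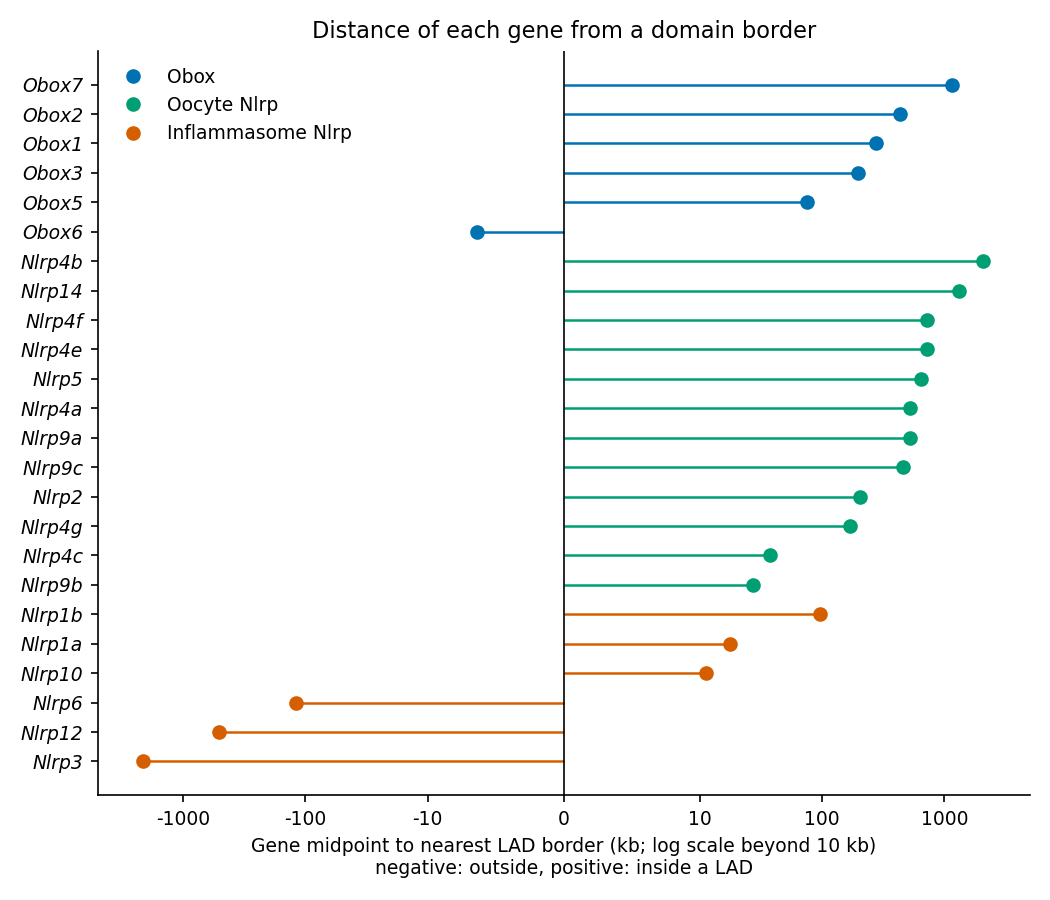
Distance of each member's midpoint from the nearest LAD border in kb, positive inside and negative outside a LAD, on a linear axis up to 10 kb and a log axis beyond, coloured by group. The oocyte Nlrp genes reach from 27.1 to 2091 kb inside, the Obox genes step down to Obox6 just outside, and Nlrp6, Nlrp12 and Nlrp3 lie farthest outside.

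The surroundings of the oocyte genes were mostly LAD, which follows in large part from the placement of their midpoints inside LADs. Coverage was not computed for genes inside LADs alone, so it is no separate result. In a window of 500 kb on each side of the midpoint, LADs covered a median of 100% of bases for the 12 oocyte Nlrp genes (range 52.7% to 100%), 73.8% for the 6 Obox genes (49.4% to 100%) and 44.9% for the 6 inflammasome genes (0% to 88.6%). The median over all protein-coding genes was 6.57%, and over those of chromosome 7 it was 35.3%. The window was covered to 50% or more for 20 of the 24 members, against 27.7% of all protein-coding genes. Among the inflammasome genes, coverage was 0% around Nlrp3 and Nlrp12, 38.0% around Nlrp6 and 88.6% around Nlrp10. Wider windows separated Nlrp4b, Nlrp14 and Obox7, still covered to 100% at 1 Mb on each side, from the trio Nlrp9c, Nlrp4a and Nlrp9a, in a LAD shorter than that window, with 57.7% each.

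**Figure D4:**
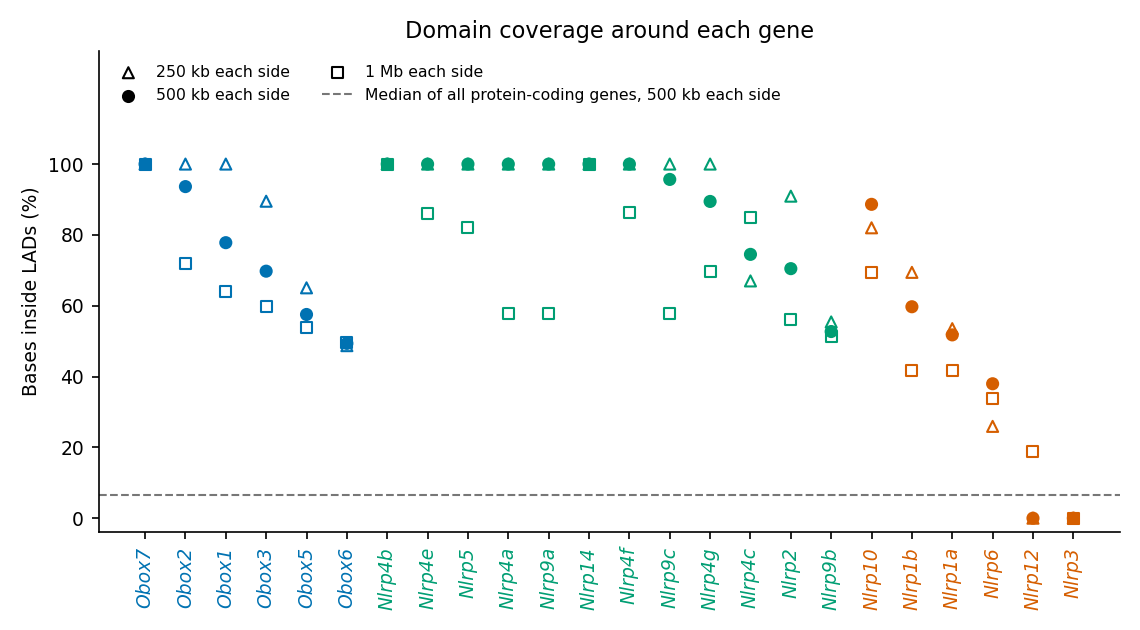
Percentage of bases inside LADs within 250 kb (triangles), 500 kb (filled circles) and 1 Mb (squares) on each side of the midpoint of each member, coloured by group; the dashed line is the median of all protein-coding genes for 500 kb, 6.57%. Most oocyte Nlrp genes are at 100% for 500 kb, and Nlrp3 is at 0% for every window.

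Many neighbours of the members on chromosome 7 were chemosensory receptor genes, as are 408 of the 760 protein-coding genes in LADs of that chromosome. In a LAD of at least 500 kb lay 20 of the 24 members, against 20.7% of all protein-coding genes (4538 of 21887). LADs of that length held all 20 members that were inside a LAD and 4538 of the 5207 protein-coding genes that were. The median length of the LAD around a member was 2522 kb, and 1785 kb around a protein-coding gene in a LAD. For protein-coding genes in LADs on chromosome 7, where 16 of these 20 members are, it was longer, at 2855 kb. With Nlrp2 and Nlrp4c were 11 Vmn1r genes, which encode pheromone receptors of the vomeronasal organ. With Nlrp4b there were 27 Vmn2r and 19 Vmn1r genes and 4 Zscan4 genes. The LAD of Nlrp5, Nlrp4e and Nlrp9b held 85 Vmn1r genes among 104, and that of Nlrp14 and Nlrp10 held 67 Olfr genes among 78. The Obox domain differed: beside the 5 Obox genes it had 8 Sult genes, which encode sulfotransferases, and only 1 Vmn1r gene among its 18 genes. In the LAD of Nlrp9c, Nlrp4a and Nlrp9a the main neighbours were 9 Cyp genes, which encode cytochromes P450.

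Gaps beside these domains were mostly, but not always, denser in genes. The 6 member domains of chromosome 7 held 7.14 to 25.6 protein-coding genes per Mb, against 3.92 per Mb over all LADs. The LAD of Nlrp1a and Nlrp1b on chromosome 11 held 3.60 per Mb. The gap before the LAD of Nlrp2 and Nlrp4c held 55.9 per Mb, including Rfpl4, an oocyte gene, with its midpoint 6.76 kb outside. The gap after the LAD of Nlrp9c, Nlrp4a and Nlrp9a was 4.14 Mb long and held 161 genes, or 38.9 per Mb. The exceptions were the gap of 90 kb after Nlrp10, with 22.2 per Mb against 25.1 in its LAD, and the gap before the LAD of Nlrp4f, with 8.63 against 13.7. At the cluster edges, Ceacam20 before Nlrp9b was 21.8 kb outside and Vmn1r91 after it was inside. Nlrp3 had Zkscan17 and Olfr222 as neighbours, at 2073 and 2148 kb outside LADs.

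The promoter windows of the members were poor in CG dinucleotides, the sites of DNA methylation. In the RefSeq window of 300 bases (250 before and 50 after the start site) the 20 matched members had a median of 2 CGs, with a range of 0 to 9, against 13 for all 17492 windows. At most 5 CGs were found in 18 of 20 member windows, in 32.7% of all windows and in 70.4% of those with their start site in a LAD. Windows with their start site in a LAD had a median of 2 over all genes, and those outside had 17, and the median of the members equalled the former. The 3 members with a start site outside LADs were also low, with 5 CGs for Nlrp12, 3 for Nlrp6 and 4 for Nlrp3, where 20.8% of windows outside LADs had 5 or fewer. The highest values were 9 for Nlrp5 and 7 for Nlrp4c. By start site, 17 of the 20 matched members lay in a LAD, against 23.9% of all windows.

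**Figure D5:**
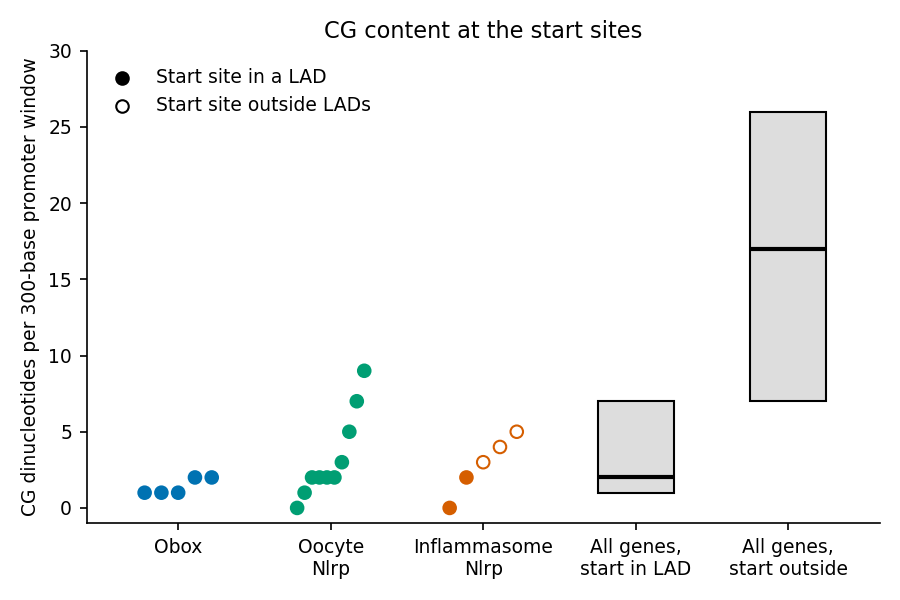
CG dinucleotides per 300-base promoter window, 1 point per matched member, filled where the start site is in a LAD; boxes give the quartiles and thick lines the median of all protein-coding genes with a start site inside or outside LADs. Members of every group lie at 9 or fewer, below the median of 17 for genes outside, including the 3 open points. Their median of 2 equals that of genes in LADs, and Nlrp5, at 9, lies above the upper quartile of 7 of those genes.

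Short motifs were counted on both strands of the same windows. CCAAT, the box bound by NF-Y, occurred in 11 of 20 member windows (55%) and in 39.2% of all windows, counting the first window of each gene. It is inside the capitals of the Nlrp9 and Nlrp4 sequences printed above, of which the Nlrp4a one is a second window and not in this count. TAATCC, the core bound by homeodomains of the Crx and Otx kind, occurred in 4 of 20 (20%) and in 6.5% of all windows; the 4 were Nlrp12, Nlrp2, Nlrp9c and Obox3. CANNTG, the E-box, occurred in 17 of 20 (85%) and in 68.8%. TATAAA occurred in 2, Obox3 and Nlrp9b (10%), and in 13.3%. Among windows with their start site in a LAD, as for 17 of these 20, the shares were 41.4% for CCAAT, 8.71% for TAATCC, 76.6% for CANNTG and 25.6% for TATAAA. A match shows only that the letters are present.

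Genes that act with the members were also placed. Among the inflammasome partners, 5 of 19 genes found were in LADs (26.3%, against 23.8% of all protein-coding genes): the caspases Casp1 and Casp4, and the DNA sensors and relatives Aim2, Ifi204 and Ifi209. The adaptor Pycard was 817.1 kb outside, the pore protein gene Gsdmd 3369 kb, and the cytokine genes Il1b and Il18 were 3639 and 798.2 kb outside. The partner outside and nearest to a border was Mefv, at 132.9 kb. Of 11 other NLR genes, 3 were inside (27.3%): Naip2, Naip5 and Naip6, sensors of bacterial flagellin and secretion systems, in a LAD of 167.5 kb. Naip2 was 0.068 kb inside, less than the 2.5 kb grid, and Naip1 was 89.8 kb outside.

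Of 29 genes found of the subcortical maternal complex and the oocyte, 9 were inside (31.0%): Zp2, a gene of the egg coat, Lhx8, Oosp1, Oosp2, Oosp3, Oog1, Oog2, Oog3 and Oog4. Near the 23.8% of all protein-coding genes, this share is no result about the list. Beside Nlrp5, the members Nlrp2 and Nlrp4f of the subcortical maternal complex were inside, and 5 other genes of the complex were outside: Khdc3 at 72.3 kb, Tle6 at 97.3 kb, Ooep at 438.6 kb, Padi6 at 1435 kb and Zbed3 at 4842 kb.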

How the data were processed

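CUT&RUN was made from iMEF with antibodies to Lamin B1, H3K9me2 and H3K14ac and with IgG, per the labels' protocols. The file analysed is the authors' deposited list of merged wild-type LADs, whose values are positions on mm10. Alignment was with Bowtie2 to mm10, per the submitters' processing notes. The domain caller, its thresholds and the treatment of reads with several matches are not given in the sources used here. Read depth is unknown, no interval per domain can be given, and 1 merged list allows no test. The score column had 1 value throughout and was not used. Histone mark and IgG libraries were not analysed here.

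Positions were counted from 1. A gene was inside a LAD if its midpoint was. Genes, promoter windows and strands came from RefSeq (GRCm38.p6). Clusters joined members whose neighbouring midpoints were at most 1 Mb apart, and coverage used 500 kb on each side. Promoter identity came from global alignments in Biopython 1.88. Python 3.11.15, pandas 2.3.3, numpy 2.4.6, scipy 1.17.1 and matplotlib 3.10.9 were used, and the placement code was tested on simulated data. All members were named. Of the other lists, genes in LADs and the nearest outside were named, with neighbours of some clusters, chosen after their values were seen; Pycard, Gsdmd, Il1b, Il18, Crxos, Khdc3, Tle6, Ooep, Padi6 and Zbed3, and the 3 genes outside the family that share the 12-base run, were added after their values were seen. The list of homeobox relatives of Obox is not reported here. The members, the gene lists and the division into oocyte and inflammasome Nlrp genes were chosen with earlier results of these data known.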

Additional observations from a re-analysis of the deposited data

How the results depend on the processing

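Over the alternatives run, the share of members in LADs stayed between 66.7% (LADs shortened by 50 kb at each end) and 91.9% (pseudogenes included). The latter adds 50 pseudogenes, 45 of them Obox copies in the single Obox domain and so not independent placements. The share was 83.3% with borders moved by 2.5 kb either way, a setting chosen after seeing the data. So were the restrictions to chromosome 7, to chromosome spans and to members over 50 kb from a border (84.2%). Of 24 members, 16 were in a LAD and 3 outside under every one of up to 12 placements; Nlrp4c, Obox6, Nlrp9b, Nlrp10 and Nlrp1a changed. The Obox share was 100% by start site, where Obox6 has no entry, and 100% with LADs lengthened by 50 kb. Inflammasome genes ranged from 16.7% to 50.0%, and oocyte Nlrp genes of chromosome 7 from 80.0% to 100%. The share of all protein-coding genes was 21.8% for whole genes, 25.1% for any overlap, 20.7% with LADs of at least 500 kb, 27.3% with gaps up to 250 kb joined, 20.6% and 28.4% with LADs shortened and lengthened by 50 kb, 31.9% over all annotated genes, 24.6% within chromosome spans and 37.4% on chromosome 7. Clusters numbered 16 at 500 kb and 13 at 2 Mb. The planned omission of single Lamin B1 replicates could not be made on a merged list. No paired analysis was possible because the list has no values per replicate.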

Other observations

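A list of 25 genes of the zygotic genome activation, the programme in which Obox proteins act, was also placed. Of 21 found, 19 were in LADs (90.5%), against 23.8% of all protein-coding genes. The Zscan4 and Usp17l genes among them are on chromosome 7, where the share for all protein-coding genes was 37.4%. Many of them are tandem copies, so that the count covers few domains. Zscan4b, Zscan4c, Zscan4d and Zscan4f lay in the LAD of Nlrp4b, 1400 to 1897 kb from its nearest border. Usp17la, Usp17lb, Usp17lc, Usp17ld and Usp17le shared a LAD of 2855 kb on chromosome 7. Tcl1, Tcl1b1, Tcl1b2, Tcl1b3, Tcl1b4 and Tcl1b5 shared a shorter LAD of 365.0 kb on chromosome 12. Tcstv1 and Tcstv3 were together in a LAD of 522.5 kb, at 76.1 and 22.9 kb from a border. Zfp352 was 491.6 kb inside and Nr5a2, a nuclear receptor gene, 66.9 kb inside. Eif1a and Duxf3 were outside, at 510.1 and 535.4 kb.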
